A study of Mus musculus with 2 samples.

Results

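The mitochondrial genome is a small circular DNA inside the organelle that makes most of a cell's ATP, and its 37 genes were followed here in primary mouse pituitary cells. They were chosen as every gene of the count table whose symbol begins with mt-, which gave 13 mRNAs, 2 rRNAs and 22 tRNAs among 47069 genes. The choice used names only and no measured value. Both samples came by their labels from pure C57BL/6 females, randomly cycling and 10 to 12 weeks old, with no mutant allele or drug named for either. Each held 500000 to 700000 acutely dissociated cells pooled from 5 whole pituitaries. One sample was stored in RNA-Best, a buffer that stabilizes RNA inside intact single cells, and the other in the common RNA stabilizer RNAlater, which was the reference. Poly(A) RNA was sequenced from 1 library per stabilizer, so no difference below has a replicate check and none was tested. The stabilizer, the pool of animals and the library preparation cannot be told apart.

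The libraries held 53915047 (RNA-Best) and 44917492 (RNAlater) counts in genes. Levels are given in CPM, the usual scale on which the counts of every library are brought to the same total. Differences are given as a log2 ratio, the RNA-Best level over the RNAlater level after 0.5 CPM was added to each. Intervals are 95% and cover counting error only, since reads of amplified libraries are not independent molecules. The tissue label was checked against its hormone genes. All 7 were detected in both libraries, from Prl (prolactin) at 235654 CPM (RNA-Best) and 172302 CPM (RNAlater) and Gh (growth hormone) at 61040 and 59379 CPM down to Tshb (thyrotropin) at 52.9 and 31.6 CPM. Over the 16504 genes that averaged 1 CPM or more, called the expressed genes below, the median log2 ratio was -0.18. In RNA-Best, 33.0% of them were higher and 67.0% lower, 0.273% were at least 2-fold higher and 4.99% at least 2-fold lower.

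Both strands of the mitochondrial DNA are transcribed into long RNAs that span many genes. The heavy strand gives both rRNAs, 12 of the mRNAs and 14 tRNAs, and the light strand gives mt-Nd6 and 8 tRNAs. The tRNAs lie between most of the other genes, and enzymes that cut out each tRNA free the mRNA or rRNA on either side. Most mitochondrial mRNAs then receive short poly(A) tails, rRNAs still shorter ones, and tRNAs the terminal CCA on which they carry their amino acid. The proteins made from these mRNAs are all subunits of complexes I, III, IV and V of oxidative phosphorylation. The nuclear genome supplies the other subunits, as well as every enzyme that copies, transcribes or processes the mitochondrial genome.

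Sequences are given from GENCODE M21 on GRCm38, 5′ to 3′ on the strand of each gene. The first 6 are tRNAs with the anticodon in capitals, shown because their counts spanned the whole range of the class. The 3 from the light strand were mt-Ts1 (serine, chrM:6870-6938), mt-Tc (cysteine, chrM:5192-5257) and mt-Te (glutamate, chrM:14071-14139), which held the most tRNA counts. The 3 from the heavy strand were mt-Tl1 (leucine, chrM:2676-2750), the highest of its strand, and mt-Tf (phenylalanine, chrM:1-68) and mt-Th (histidine, chrM:11546-11612), which had no count in either library.
mt-Ts1: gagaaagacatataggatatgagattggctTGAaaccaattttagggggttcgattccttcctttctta
mt-Tc: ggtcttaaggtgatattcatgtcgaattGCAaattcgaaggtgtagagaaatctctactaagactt
mt-Te: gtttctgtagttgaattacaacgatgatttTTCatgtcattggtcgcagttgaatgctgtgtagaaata
mt-Tl1: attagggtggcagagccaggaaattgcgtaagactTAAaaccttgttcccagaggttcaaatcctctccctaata
mt-Tf: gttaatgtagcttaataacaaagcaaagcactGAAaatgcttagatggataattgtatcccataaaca
mt-Th: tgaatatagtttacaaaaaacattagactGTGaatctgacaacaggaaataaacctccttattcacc

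The 2 sequences that follow are the longest stretches shared by mRNA genes of the same strand, with the shared bases in capitals, so that a read there belongs to both. The 3′ end of mt-Atp8 and the start of mt-Atp6 share 43 bases (window chrM:7907-7989), and mt-Nd4l and mt-Nd4 share 7 (window chrM:10142-10198).
mt-Atp8 and mt-Atp6: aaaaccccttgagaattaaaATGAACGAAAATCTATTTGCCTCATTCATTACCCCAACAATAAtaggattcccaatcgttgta
mt-Nd4l and mt-Nd4: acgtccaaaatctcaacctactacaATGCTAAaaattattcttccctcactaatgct

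The last 3 sequences compare 80 bases of mt-Co1 (chrM:6390-6469) with the same stretch of a pair of nuclear pseudogenes, Gm29216 (chr1:24616109-24616188) and Gm13340 (chr2:22588506-22588585), with bases that differ from mt-Co1 in capitals. They are shown because a short read from most of this stretch matches more than 1 of the genes equally well.
mt-Co1: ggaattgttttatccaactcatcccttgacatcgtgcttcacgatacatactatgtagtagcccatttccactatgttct
Gm29216: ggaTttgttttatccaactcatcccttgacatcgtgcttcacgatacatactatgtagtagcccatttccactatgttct
Gm13340: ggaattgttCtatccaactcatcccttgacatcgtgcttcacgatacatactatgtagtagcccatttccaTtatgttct

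The 37 genes took a similar share of both libraries, 2.44% of all counts in RNA-Best and 2.37% in RNAlater. The 95% intervals by Clopper-Pearson ran from 2.438% to 2.446% for RNA-Best and from 2.367% to 2.376% for RNAlater. The mRNAs made up 94.8% and 96.4% of the mitochondrial counts in RNA-Best and RNAlater, the rRNAs 4.99% and 3.39%, and the tRNAs 0.200% and 0.196%. Per length, in CPM per kb of gene, the mRNAs stood at 2031 and 2005, the rRNAs at 480 and 317, and the tRNAs at 32.5 and 31.0. The order of the classes was thus mRNA, rRNA and tRNA in both libraries. Since the libraries were made from poly(A) RNA, this is the order of what entered them and not that of the cell.

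Of the 3 classes, the rRNAs differed most between the libraries. They summed to 1218 CPM with RNA-Best against 803 CPM with RNAlater, which is 1.52-fold (log2 ratio 0.60, 0.58 to 0.62). The mRNAs summed to 23156 and 22864 CPM (log2 ratio 0.02, 0.01 to 0.02). The tRNAs summed to 48.7 and 46.5 CPM, with a log2 ratio of 0.07. Its counting interval by CPM ran from -0.02 to 0.15 and so held 0, but the ratio became 0.24 with TMM factors. For every 100 mRNA counts there were 5.26 rRNA counts in RNA-Best and 3.51 in RNAlater. The log2 ratios of all 3 sums lay above the median of the expressed genes (-0.18).

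Of the 37 genes, 21 averaged 1 CPM or more, namely the 13 mRNAs, both rRNAs and 6 tRNAs of the light strand. None of these 21 differed by 2-fold or more, where 5.27% of all expressed genes did. The log2 ratios ran from -0.50 (mt-Nd6) to 0.65 (mt-Rnr2).

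The mRNAs divided almost evenly by CPM, with 7 of 13 higher and 6 lower in RNA-Best and a median log2 ratio of 0.03. Among all expressed genes, 33.0% were higher and 67.0% lower. By CPM, the counting intervals of the mRNAs lay above 0 for 7 and below 0 for 5, where those of all expressed genes did so for 20.2% and 51.2%. The number that were higher depended on the scaling and was 10 of 13 with edgeR TMM or DESeq2 factors, under which 48.6% and 49.6% of all expressed genes were higher.

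Complex I (NADH dehydrogenase) takes electrons from NADH into the respiratory chain, and its 7 mitochondrial subunit genes differed most among themselves. mt-Nd1 was at 1220 CPM in RNA-Best and 1044 in RNAlater (log2 ratio 0.22, 0.21 to 0.24), and mt-Nd2 at 997 and 976 CPM (0.03, 0.01 to 0.05). mt-Nd3 was at 105 and 68.3 CPM (0.62, 0.56 to 0.69), the highest ratio of the mRNAs. By CPM, these 3 genes were each higher in RNA-Best and the other 4 were lower, beside 33.0% higher among all expressed genes. With TMM factors 4 were higher and 3 lower, as the ratio of mt-Nd4 became 0.08, beside 48.6% higher. mt-Nd4l was at 56.6 and 69.4 CPM (-0.29, -0.37 to -0.22), and mt-Nd4, which follows it, at 1587 and 1698 CPM (-0.10, -0.11 to -0.08). mt-Nd5 was at 761 and 1047 CPM (-0.46, -0.48 to -0.44). mt-Nd6, the mRNA of the light strand, was at 452 and 638 CPM (-0.50, -0.52 to -0.47). mt-Nd5 and mt-Nd6 face each other and overlap at their 3′ ends. The counting setting for strand is not given in the sources used here, so reads from the overlap of these opposite genes, and reads of the heavy-strand RNA across mt-Nd6, cannot be told apart by strand. The summed complex I mRNAs were at 5178 CPM in RNA-Best and 5540 in RNAlater (log2 ratio -0.10), and the median of the 7 log2 ratios, -0.10 by CPM, became 0.08 with TMM factors.

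Complex III passes electrons to cytochrome c, and its only mitochondrial subunit is cytochrome b. mt-Cytb was the second most abundant mitochondrial mRNA, at 4210 and 4108 CPM in RNA-Best and RNAlater (log2 ratio 0.04, 0.03 to 0.04). This rank leaves out the counts of nuclear copies described below. With them added, mt-Cytb was at 4212 and 4110 CPM and mt-Atp6 above it at 5197 and 4512 CPM. In RNA-Best mt-Co3 (5363 CPM) and mt-Co2 (4336 CPM) were then above it too, but not in RNAlater.

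Complex IV (cytochrome c oxidase) reduces oxygen, and the mitochondrial genome encodes the 3 subunits of its catalytic core. mt-Co1, the subunit that binds the heme and copper where oxygen is reduced, was the most abundant mitochondrial gene and the fourth most abundant gene of each library. It was at 6665 CPM in RNA-Best and 7379 in RNAlater (log2 ratio -0.15, -0.15 to -0.14). The other 2 were higher in RNA-Best, mt-Co2 at 1931 and 1683 CPM (0.20, 0.19 to 0.21) and mt-Co3 at 2677 and 1996 CPM (0.42, 0.41 to 0.44). Their sum was 11273 and 11058 CPM. The negative ratio of mt-Co1 became positive with edgeR TMM or DESeq2 factors, and so did those of mt-Nd4 and mt-Atp8.

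Complex V is the ATP synthase, and both of its mitochondrial subunits belong to the part embedded in the membrane. mt-Atp6, whose protein forms part of the proton channel, was at 2409 CPM in RNA-Best and 2070 in RNAlater (log2 ratio 0.22, 0.21 to 0.23). mt-Atp8, made from the same bicistronic mRNA, was at 85.5 and 88.6 CPM (-0.05, -0.11 to 0.01). By CPM the interval of mt-Atp8 spanned 0, the sole mRNA for which it did, and its ratio became 0.12 with TMM factors. The pair shares the 43 bases printed above, and reads over 2 genes can be dropped or divided in counting. The shared stretch is a larger part of mt-Atp8 (204 bases) than of mt-Atp6 (681 bases).

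**Figure D1:**
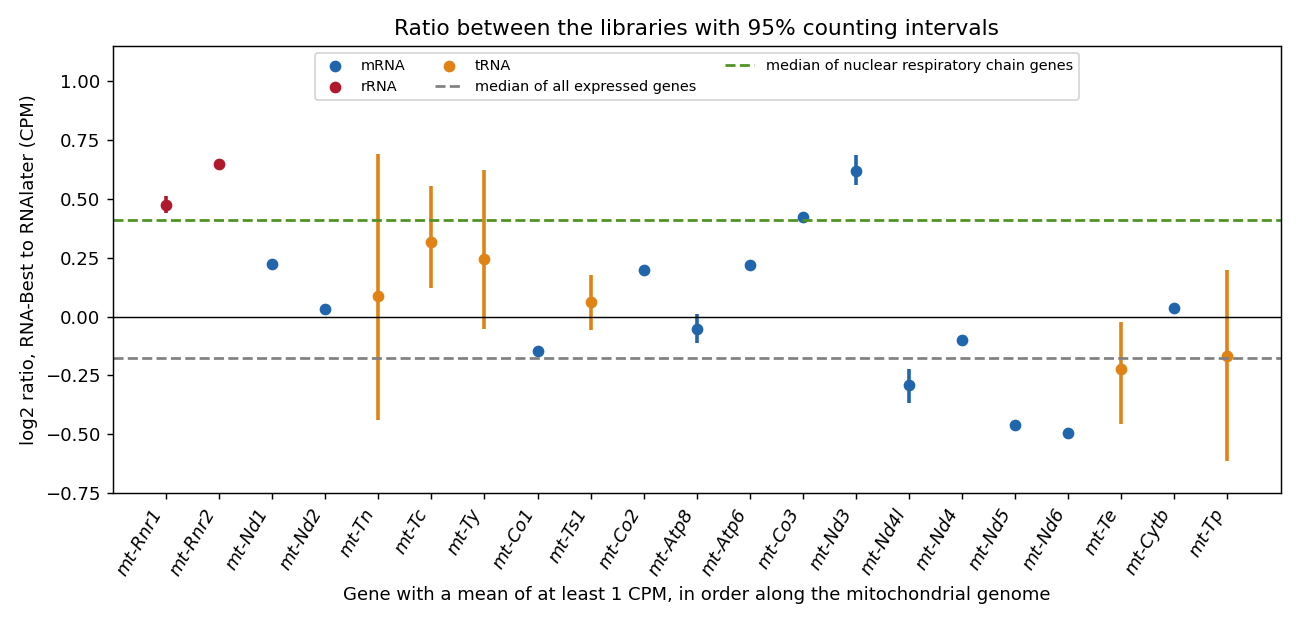
The vertical axis gives the log2 ratio, RNA-Best over RNAlater in CPM with 0.5 added, for the 21 genes that averaged 1 CPM or more, in genome order. Each point compares 1 library with 1 library, and bars are 95% counting intervals computed without the added 0.5. The rRNAs (0.48 and 0.65) and mt-Nd3 (0.62) lie at the top, mt-Nd5 (-0.46) and mt-Nd6 (-0.50) at the bottom, and all intervals but those of some tRNAs are narrow. The dashed lines mark the median of all expressed genes (-0.18) and of the nuclear respiratory chain genes (0.41).

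The ratios of the mRNAs were only weakly ordered by position or length, and hardly at all by base composition. Across the 13 mRNAs, which share 2 libraries and are not independent, Spearman's rho with the log2 ratio was -0.19 for gene length, -0.05 for GC content, -0.01 for the longest run of A and -0.39 for the start position. Lengths ran from 204 to 1824 bases and GC from 31.9% to 41.1%. Among nuclear genes, length moved with the ratio. It was taken from the longest annotated transcript of each gene, which need not be the one expressed. The median log2 ratio of nuclear protein-coding genes fell from 0.32 for transcripts up to 1 kb (519 genes) to 0.09 for 1 to 2 kb, -0.16 for 2 to 4 kb and -0.50 above 4 kb (5477 genes). The mitochondrial mRNAs had medians of 0.21 up to 1 kb (8 genes) and -0.10 from 1 to 2 kb (5 genes). The part of length in the mitochondrial ratios was not tested.

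Within each library, the level per length spanned 22.6-fold among the mRNAs in RNA-Best and 24.3-fold in RNAlater. The highest were mt-Co1 at 4314 and 4776 CPM per kb and mt-Cytb at 3680 and 3591. They were followed by mt-Atp6 (3537 and 3039), mt-Co3 (3414 and 2546) and mt-Co2 (2824 and 2461), so all mRNAs of complexes III and IV and one of complex V stood above every mRNA of complex I. A middle group held mt-Nd1 (1275 and 1091 CPM per kb), mt-Nd4 (1151 and 1232), mt-Nd2 (961 and 940) and mt-Nd6 (871 and 1229). The lowest were mt-Atp8 (419 and 434), mt-Nd5 (417 and 574), mt-Nd3 (303 and 196) and mt-Nd4l (191 and 234). mt-Atp8 and mt-Nd5 in RNA-Best, and mt-Nd4 and mt-Nd6 in RNAlater, were neighbours that did not differ beyond counting error. mt-Nd6 was 2.09 times mt-Nd5 per length in RNA-Best and 2.14 times in RNAlater.

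The rRNAs were both higher in RNA-Best. mt-Rnr1, the RNA of the small mitochondrial ribosomal subunit, was at 318 CPM in RNA-Best and 229 in RNAlater (log2 ratio 0.48, 0.44 to 0.51). mt-Rnr2, that of the large subunit, was at 900 and 575 CPM (0.65, 0.63 to 0.67). The genes are 955 and 1582 bases long and are separated by mt-Tv alone. Per length mt-Rnr2 exceeded mt-Rnr1 by 1.71-fold in RNA-Best and 1.52-fold in RNAlater. Both rRNAs had whole counts in each library and no nuclear copy by the rule given below. The libraries were made from poly(A) RNA, so these values are the rRNA that entered such libraries and not the rRNA of the cell.

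The tRNAs fell into 2 groups by strand. The 8 of the light strand held 2558 of 2627 tRNA counts in RNA-Best (97.4%) and 2045 of 2088 in RNAlater (97.9%). Their counts per gene ran from 27.5 to 1337 in RNA-Best and from 26.5 to 1068 in RNAlater. The 14 of the heavy strand held 69 and 43.17 counts, from 0 to 48 and from 0 to 22 per gene. No light-strand tRNA was at or below 3 counts in either library, against 11 of 14 heavy-strand tRNAs in each. Per length, the light-strand group was at 86.4 and 82.9 CPM per kb and the heavy-strand group at 1.34 and 1.01. As for the rRNAs, these values are the RNA that entered poly(A) libraries and not the tRNA of the cell. Cut tRNAs and longer RNAs that span a tRNA gene were not told apart. Each light-strand tRNA gene is also spanned by the long RNA of the heavy strand, and with the strand setting not given, reads of either strand cannot be told apart at these genes.

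Among the light-strand tRNAs, mt-Ts1 (serine) was the highest with 1337 counts (RNA-Best) and 1068 counts (RNAlater) (log2 ratio 0.06, -0.06 to 0.18). Its gene lies at the end of mt-Co1, on the opposite strand, and shares its last bases. mt-Tc (cysteine) had 451.5 and 297.5 counts (0.32, 0.12 to 0.55) and mt-Te (glutamate) 354 and 347.5 (-0.22, -0.46 to -0.02). By CPM, these are the only tRNAs of the 6 above the limit of 1 CPM whose counting intervals lay to one side of 0. Other scalings shift the intervals with the ratios, which with TMM factors became -0.06 for mt-Te and 0.23 for mt-Ts1. mt-Ty (tyrosine) had 184 and 126 counts, mt-Tp (proline) 106 and 102, and mt-Tn (asparagine) 63.67 and 48.67, and the intervals of all 3 ratios spanned 0. mt-Tq (glutamine) with 34 and 29 counts and mt-Ta (alanine) with 27.5 and 26.5 were below the limit.

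Among the heavy-strand tRNAs, mt-Tl1, which lies between mt-Rnr2 and mt-Nd1, stood at 48 counts (0.890 CPM) with RNA-Best and 22 counts (0.490 CPM) with RNAlater. It held more than all 13 others together, which had 21 and 21.2 counts. mt-Tm (methionine) had 7 and 3 counts, mt-Tw (tryptophan) 4.5 and 3.17, and mt-Ti (isoleucine) 0 and 6. The remaining 10 did not exceed 3 counts in either library. They were mt-Tv (valine, 0 and 3), mt-Tk (lysine) and mt-Ts2 (serine) with 3 and 1 each, mt-Tl2 (leucine, 0 and 2), mt-Tr (arginine, 1.5 and 0), mt-Td (aspartate, 1 and 0), mt-Tg (glycine, 1 and 1), mt-Tt (threonine, 0 and 1), mt-Tf and mt-Th. The last of these, mt-Tf and mt-Th, were at 0 in both. By the 95% Poisson interval, a count of 0 allows a level of up to 0.0684 CPM for RNA-Best and 0.0821 CPM for RNAlater. The number at 0 was 6 of 14 in RNA-Best and 4 of 14 in RNAlater. The counting interval of the log2 ratio excluded 0 for mt-Tl1 (0.11 to 1.66) and, with an upper bound of -0.50, for mt-Ti. For the other 12 no difference was detectable at this depth.

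**Figure D2:**
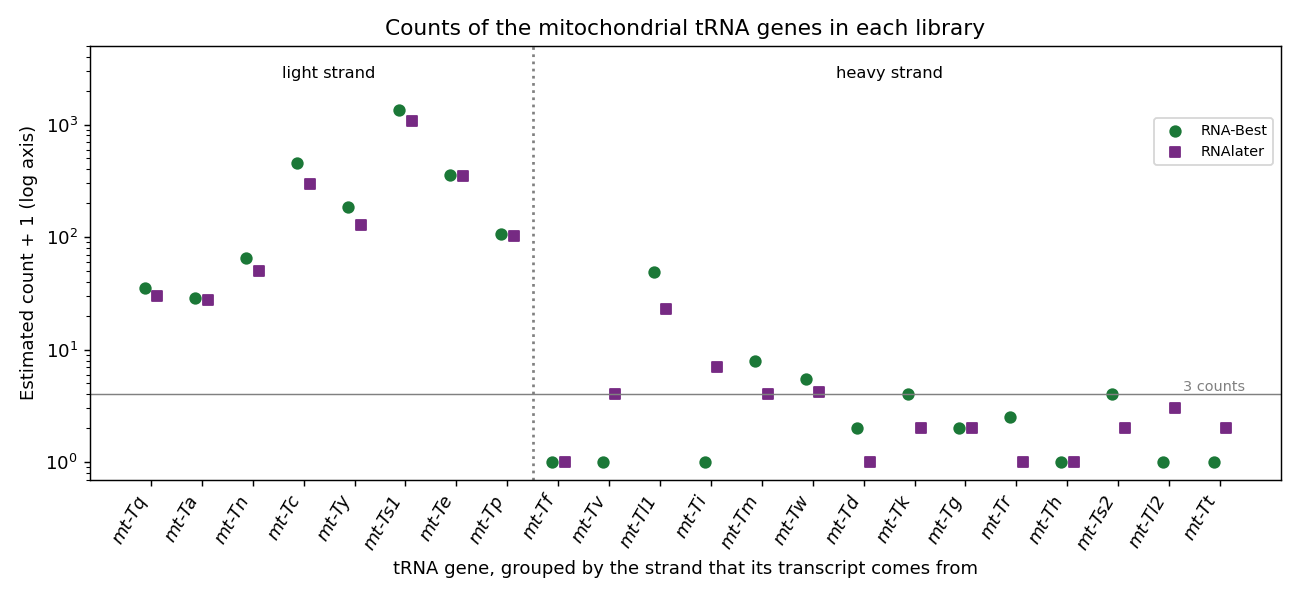
Estimated counts of each of the 22 mitochondrial tRNA genes with 1 added (log axis) in the RNA-Best and RNAlater libraries, grouped by the strand the tRNA is transcribed from, with a line at 3 counts. All 8 light-strand tRNAs lie above the line, between 26.5 and 1337 counts before the 1 is added, while 11 of 14 heavy-strand tRNAs lie on or below it in each library.

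Nuclear pseudogenes held as many counts as some of the mitochondrial genes they match, or more. Pieces of mitochondrial DNA have been copied into the nuclear genome over evolution, and annotated copies were found here by comparing the mitochondrial transcripts with all other annotated transcripts. With at least 90% identity over 100 bases or more and over 50% or more of the copy, 16 pseudogenes matched, of which 15 were in the count table. They match 11 of the 13 mRNAs, all but mt-Nd1 and mt-Atp8, and neither rRNA. Together they held 1.20% of all counts in RNA-Best (11983 CPM) and 1.09% in RNAlater (10939 CPM), with a log2 ratio of 0.13.

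A block of 7 copies on chromosome 1 (chr1:24611535-24616197) held 81.2% of the copies' counts in RNA-Best and 78.3% in RNAlater. Its members lie in the order and relative orientation of the mitochondrial genes. Gm28661, identical to mt-Co2 over 681 bases, held 104146 counts in RNA-Best beside 104127 of mt-Co2, and 75610 beside 75597 in RNAlater. Gm28437, identical to mt-Co3 over 783 bases, had 144850 beside 144307 and 89957 beside 89650. The counts of each pair were thus equal to within 1% in both libraries. Gm10925, identical to mt-Atp6 over 678 bases, held more than its gene, 150325 counts beside 129867 in RNA-Best and 109693 beside 92963 in RNAlater. The copies of mt-Nd3 (Gm28438) and mt-Nd4l (Gm10222) had 5702 and 3055 counts in RNA-Best, beside 5676 and 3054 of their genes.

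Copies that cover less of a gene, or match it less closely, held smaller shares. Gm28439 is identical to mt-Nd4 over 63.6% of its length and had 0.423 of its counts in RNA-Best and 0.446 in RNAlater. mt-Co1 has Gm29216 on chromosome 1 over 31.3% of its length (99.8% identity, 80115 and 69419 counts) and Gm13340 on chromosome 2 over its whole length (97.6% identity, 89235 and 81211 counts). On chromosome 2, Gm13341 held 0.245 of the counts of mt-Co2 in RNA-Best (95.9% identity) and Gm13339 held 0.063 of those of mt-Nd2 (96.7% identity). The 5 processed pseudogenes matching mt-Co1, mt-Nd5, mt-Nd6 and mt-Cytb at 90.7% to 95.2% identity held at most 1213 counts each.

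Only 1 of the 13 mRNAs, mt-Nd1, had whole counts in both libraries, whereas both rRNAs and 15 of 22 tRNAs did. Most of these 15 were heavy-strand tRNAs with few or no counts. The tRNAs with the most counts, mt-Ts1, mt-Tc and mt-Te, did not have whole counts in both. Among all genes, 35.4% of the values above 0 in RNA-Best and 34.9% in RNAlater were not whole, which means that reads could be divided between genes when the authors counted them. Reads of an identical copy and of its gene cannot be told apart in these data. Adding the counts of the copies to the genes they match raised the mitochondrial share to 3.64% in RNA-Best and 3.47% in RNAlater. The summed mRNA level rose to 35138 and 33803 CPM, with a log2 ratio of 0.06 in place of 0.02. The gain was 2.25-fold for mt-Co2, 2.16-fold for mt-Atp6, 1.47-fold for mt-Co1 and 1.42-fold for mt-Nd4 in RNA-Best, and there was none for mt-Nd1.

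The order of levels changed with the copies added. mt-Atp6 became the highest per length at 7631 CPM per kb in RNA-Best, followed by mt-Co3 at 6841, mt-Co1 at 6362 and mt-Co2 at 6339, with mt-Cytb at 3682. In RNAlater, mt-Co1 stayed highest at 6962 CPM per kb, ahead of mt-Atp6 at 6625, mt-Co2 at 5527 and mt-Co3 at 5100. None of the 21 genes changed the sign of its ratio between the libraries. This was largely set in advance, since only 11 of them have a copy and the others could not change. Reads of an identical copy and its gene cannot be told apart, so their ratios are not independent either.

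**Figure D3:**
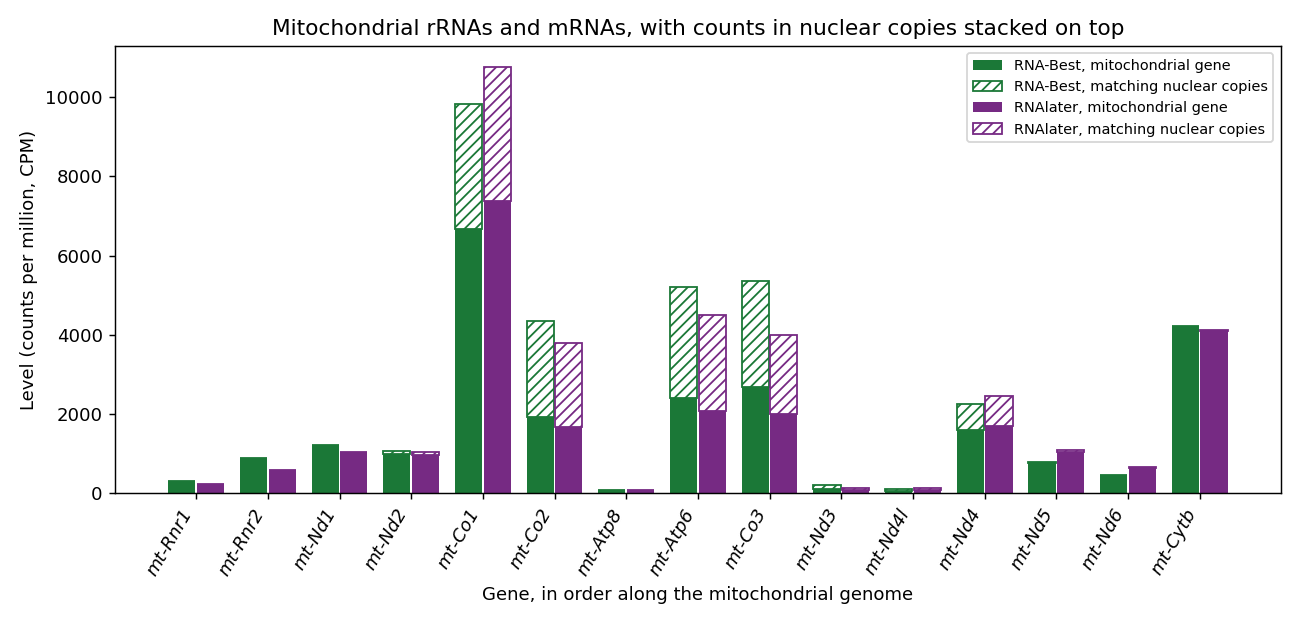
Level in CPM (vertical axis, from 0) of the 2 rRNAs and 13 mRNAs in genome order for the RNA-Best and RNAlater libraries, as solid bars for the mitochondrial gene and hatched bars for its nuclear copies. The hatched part is as tall as the solid part for mt-Co3 and taller for mt-Co2 and mt-Atp6, and mt-Nd1, mt-Atp8 and the rRNAs have none.

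Nuclear genes for subunits of the same complexes were mostly higher in RNA-Best. Of 77 such genes, all averaging 1 CPM or more, 75 were higher and 2 lower by CPM, beside 33.0% higher among all expressed genes. With TMM or DESeq2 factors all 77 were higher, beside 48.6% and 49.6%. By CPM the median log2 ratio of the 77 genes was 0.41, and they summed to 7368 CPM with RNA-Best and 5486 CPM with RNAlater. By complex the nuclear medians were 0.41 (I, 35 of 36 higher), 0.25 (II, 3 of 4), 0.55 (III, 9 of 9), 0.44 (IV, 12 of 12) and 0.37 (V, 16 of 16). The mitochondrial medians beside them were -0.10 (I), 0.04 (III), 0.20 (IV) and 0.08 (V), below the nuclear one in each complex. That of complex I, which is the value of mt-Nd4, became 0.08 with TMM factors. The list was set down with earlier results of these data known.

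The ends of the nuclear list were Ndufs1, the iron-sulfur subunit of complex I, at 65.0 and 70.7 CPM (-0.12), and Uqcrh, the hinge protein of complex III, at 289.8 and 139 CPM (1.06). Uqcrh and Atp5l, a membrane subunit of the ATP synthase (60.5 and 29.0 CPM, 1.05), were the 2 members at least 2-fold higher, beside 0.273% of all expressed genes. In complex IV the ratios ran from 0.00 for Cox6c (99.9 and 99.8 CPM) to 0.98 for Cox7a2l (269.6 and 137 CPM). Sdha, of complex II, which has no mitochondrial subunit, was at 216 and 219.9 CPM (-0.03). The median transcript length of the 77 genes, by the longest annotated transcript of each, was 1141 bases, and only 26 had whole counts in both libraries. What length and divided reads add to these ratios was not tested.

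**Figure D4:**
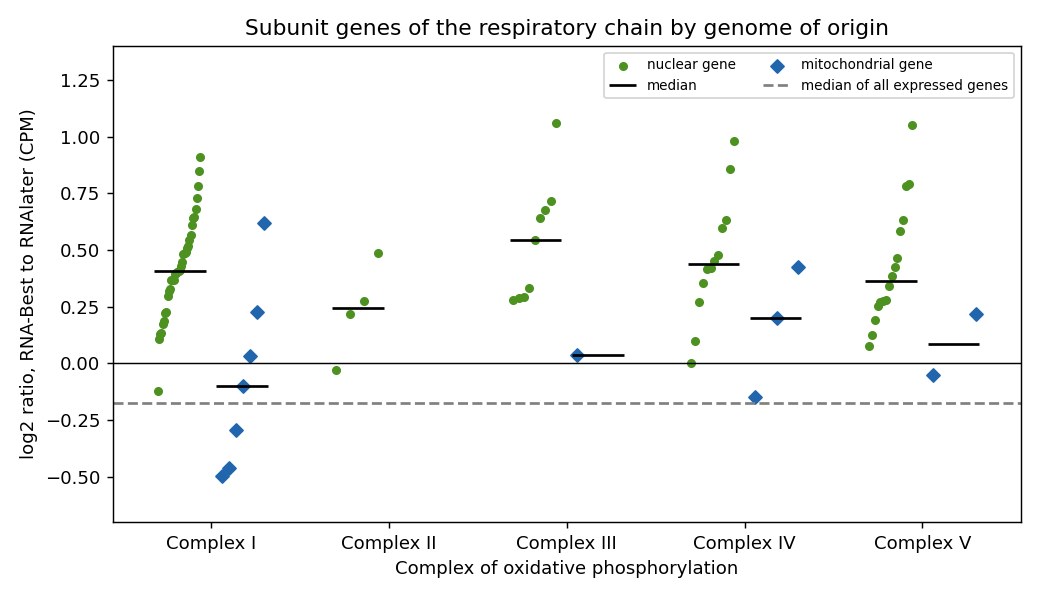
The vertical axis gives the log2 ratio in CPM, RNA-Best over RNAlater, for subunit genes of complexes I to V, as circles for nuclear genes and diamonds for mitochondrial genes, with bars at the medians and a dashed line at the median of all expressed genes. Nuclear medians run from 0.25 to 0.55, and mitochondrial medians from -0.10 (complex I, positive with TMM factors) to 0.20, with mt-Nd3 (0.62) the one mitochondrial gene above 0.5.

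Nuclear genes that maintain or express the mitochondrial genome moved in both directions, with log2 ratios from -0.65 to 0.62. Of 44 such genes, 25 were higher and 19 lower in RNA-Best by CPM (median 0.02), beside 33.0% higher among all expressed genes. With TMM factors 32 were higher and 12 lower (median 0.19), beside 48.6% higher. The ratios of 33 of the 44 lay above the median of all expressed genes, and none reached 2-fold, beside 5.27%. The 9 transcription genes (7 higher, median 0.05) ran from Polrmt, the mitochondrial RNA polymerase (10.7 and 15.1 CPM, -0.48), to Mterf1b (1.89 and 1.16 CPM, 0.53). Tfam, which packages the DNA and starts transcription, was at 30.2 and 29.5 CPM (0.03). The 19 genes of RNA processing and stability (9 higher, median -0.03) ran from Elac2, which cuts the 3′ ends of tRNAs (12.8 and 18.8 CPM, -0.53), to Hsd17b10, a subunit of the enzyme that cuts their 5′ ends (37.8 and 24.4 CPM, 0.62). Lrpprc, which stabilizes mitochondrial mRNAs, was at 28.0 and 34.9 CPM (-0.31), and its partner Slirp at 36.3 and 27.0 CPM (0.42). The pair acts as a complex, and its members had ratios of opposite sign, also with TMM factors. The 9 genes of DNA maintenance (4 higher, median -0.03) ran from Polg, the DNA polymerase (23.6 and 37.3 CPM, -0.65), to Ssbp1 (59.6 and 49.6 CPM, 0.26). The 7 genes of rRNA modification (5 higher, median 0.12) ran from Tfb1m (5.36 and 6.06 CPM, -0.16) to Mrm1 (10.2 and 7.39 CPM, 0.44).

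Markers of pituitary cell types also moved between the libraries. In bulk samples fewer cells of a type and less RNA per cell cannot be told apart. All 7 endocrine hormone genes were higher in RNA-Best (summed 307051 and 239085 CPM) and so were all 5 erythroid genes (3200 and 1130 CPM), where 33.0% of all expressed genes were higher by CPM and 67.0% lower. Lower were 10 of 10 endothelial genes (443 and 896 CPM), 10 of 10 of pericytes and fibroblasts (590 and 801 CPM), 8 of 8 of the posterior lobe (138 and 245 CPM) and 8 of 9 of stem and folliculostellate cells (352 and 516 CPM). With TMM factors 1 endothelial gene (Esam), 1 of pericytes and fibroblasts (Ogn) and 1 more of stem and folliculostellate cells (Cdh26) were higher instead. Macrophage genes were 5 higher and 5 lower (218 and 203 CPM). No marker was at 0 in either library. Transcript length, by the longest annotated transcript of each gene, also differed between the lists. Median lengths were 895 bases for the endocrine and 699 for the erythroid genes. They were 3758 for endothelial, 5385.5 for pericyte and fibroblast, 3550 for posterior lobe and 1866 for stem and folliculostellate genes. For macrophage genes the median was 1145.5 bases. The part of length in these marker ratios, and that of cell composition in the mitochondrial levels, was not tested.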

How the data were processed

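Poly(A) RNA of 2 pituitary cell samples was measured, grouped by the stabilizer in the labels with 1 library each. The authors deposited 1 table of estimated counts per Ensembl gene, not normalized and with fractions. The submitters' processing notes name STAR 2.5.1b, featureCounts 1.5.0-p1 and mm10, and the strand setting and the option that gave fractions are not given in the sources used here.

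Symbols, coordinates and lengths came from GENCODE M21 (46488 of 47069 genes matched, 37 of 37 mitochondrial genes at the same version). All columns were mapped. CPM used the column totals. Log2 ratios added 0.5 CPM, and genes called expressed averaged at least 1 CPM. With 1 library per group the linear model of the study was not applied, no p-value is given, and 2-fold was the rule of size. The 95% intervals were Clopper-Pearson for shares, exact Poisson for levels and exact conditional binomial for ratios, on rounded counts. Counts of 3 or fewer were taken as at the floor. Copies were found with BLAST+ 2.17.0 among annotated transcripts, since no genome sequence was used here, in place of the genome search planned. R 4.3.3 gave the scaling factors, by TMM in edgeR 4.0.16 and by DESeq2 1.42.0, and all else from Python 3.11.15, numpy 2.4.6, pandas 2.3.3 and scipy 1.17.1. The steps were tested on simulated data.

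The genes and lists were chosen with earlier results of these data known. Named were all 37 genes, Prl and Gh, up to 5 copies with the highest counts, the ends of each nuclear list with up to 2 central members, Lars2, CT010467.1 and the hormone genes. The other copies, Esam, Ogn and Cdh26 were named after their values were seen. Alternatives were the scaling, pseudocount, filter, unshared length and the addition of the copies' counts.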

Additional observations from a re-analysis of the deposited data

How the results depend on the processing

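No paired analysis was possible because the labels give 1 library for each stabilizer, and leaving out a replicate could not be run. Other scalings moved log2 ratios, before the 0.5 CPM is added, by 0.17 with edgeR TMM factors, 0.18 with DESeq2 size factors and 0.13 with Prl and Gh left out of the total, and genes near 1 CPM or below moved by other amounts once it was added. In that order the summed mRNAs (0.02) became 0.19, 0.20 and 0.15, the summed rRNAs (0.60) became 0.77, 0.79 and 0.73, and the summed tRNAs (0.07) became 0.24, 0.25 and 0.19. The median of the mRNAs (0.03) became 0.20, 0.22 and 0.16, and that of the nuclear respiratory chain genes (0.41) became 0.58, 0.59 and 0.54. Without Prl and Gh in the total, the mitochondrial share was 3.47% in RNA-Best and 3.09% in RNAlater, and with the copies' counts added 3.64% and 3.47%. The copies moved the summed mRNA ratio to 0.056. They left 4 of 13 mRNAs at the same rank per length in RNA-Best, an alternative chosen after seeing the data, whereas unshared length left 11. The signs of mt-Atp8 and mt-Nd4 changed under all 3 scalings and that of mt-Co1 under TMM and DESeq2. Pseudocounts of 0.1 and 1 CPM, a filter of 10 CPM and no filter moved the medians by less than counting error, and 0 mitochondrial genes reached 2-fold under any alternative run. Without a filter, the added 0.5 CPM holds tRNAs of a few counts below 2-fold, as for mt-Ti (0 and 6 counts, log2 ratio -0.34). That run therefore cannot decide for these tRNAs. With 1 library per stabilizer, the depth limits only the tRNAs and does not replace replicates.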

Other observations

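Lars2 (protein-coding, chromosome 9) was at 3137 CPM in RNA-Best and 1151 in RNAlater (log2 ratio 1.45, 1.43 to 1.46). CT010467.1, annotated as an rRNA gene on chromosome 17, was at 4608 and 1324 CPM (1.80, 1.79 to 1.81). Both ratios were further from 0 than that of either mitochondrial rRNA. Neither transcript had a match to a mitochondrial transcript in the search for copies. Of the 100 genes with the highest CPM, 10 were mitochondrial genes and 6 nuclear copies in RNA-Best, and 11 and 6 in RNAlater.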
